A study of Mus musculus with 6 samples.

Results

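The glutathione and antioxidant enzymes were described here through 10 genes, Hmox1, Nqo1, Gclc, Gclm, Txnrd1, Srxn1, Prdx1, Gpx1, Gpx3 and Gpx4. They were taken by gene symbol from the deposited table of 20950 entries, each symbol matched 1 row, and all 10 had a mean of at least 1 FPKM, as did 10731 entries in all. FPKM is the number of reads of a gene scaled to transcript length and to the number of mapped reads, so it can be compared between genes. The libraries came from C2C12, an established mouse myoblast line whose cells fuse into myotubes when serum is withdrawn. Growing cells in 10% FBS (fetal bovine serum) gave 1 library. Cells switched to differentiation in 2% HS (horse serum) and in 0.2% FBS gave 1 library each, cells in 2% HS + exosome gave 1, and cells in 0.2% FBS + exosome gave 2, called replicates 1 and 2. Exosomes are small vesicles released by cells, and those added here were obtained from FBS with commercial kits. The labels do not say whether replicates 1 and 2 were separate cultures, so their spread may be technical, and the control in each medium is a single library. RNA was taken from whole cultures, in which fewer cells of a type and less RNA per cell cannot be told apart.

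Cells hold hydrogen peroxide and lipid peroxides in check with glutathione and with thioredoxin, and both systems draw their electrons from NADPH. Glutathione peroxidases spend glutathione to reduce peroxides, whereas peroxiredoxins spend thioredoxin, which thioredoxin reductase regenerates. Many of these genes are targets of the transcription factor NRF2 (gene Nfe2l2), which KEAP1 marks for degradation in unstressed cells and which binds antioxidant response elements in DNA. Gpx1, Gpx3, Gpx4 and Txnrd1 encode selenoproteins, enzymes with selenocysteine in the active site. In muscle these systems act against the peroxides that contraction and mitochondrial respiration produce.

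The core letters of the antioxidant response element, TGACNNNGC, were searched on both strands in the 250 bases before each RefSeq transcription start (GRCm38.p6, the build called mm10). RefSeq promoters were at hand for 8 members, and 3 of the 8 held the letters, against 11.5% of the 27025 genes with a promoter. The matches are shown because these letters are what ties a promoter to NRF2 in principle. That of Txnrd1 belongs to 1 of its 3 RefSeq starts. Capitals mark the matched letters, which in all 3 lie on the strand opposite to the one printed.
Gclm (chr3:122245408-122245446, plus strand): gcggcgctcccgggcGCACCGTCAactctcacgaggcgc
Txnrd1 (chr10:82859099-82859137, plus strand): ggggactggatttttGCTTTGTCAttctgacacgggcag
Prdx1 (chr4:116685451-116685489, plus strand): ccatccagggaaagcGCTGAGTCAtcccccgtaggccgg
The match in Prdx1 overlaps the letters TGANTCA, the recognition sequence of AP-1 factors, which also occur in the Srxn1 promoter and in 7.82% of genes. Gpx3, whose levels varied most, had no match to either motif before its 1 RefSeq start, and the 100 bases before that start are given for that reason. The GENCODE gene begins further upstream, and the bases before the GENCODE start were not searched.
Gpx3 (chr11:54902754-54902853, plus strand): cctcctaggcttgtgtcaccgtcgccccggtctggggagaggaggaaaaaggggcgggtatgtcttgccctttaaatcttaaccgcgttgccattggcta
A match of letters is a description of the sequence, and binding was not measured.

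Of the 10 genes, 9 stayed within the threshold of the study, a log2 change beyond 1 or −1, when exosomes were added in 0.2% FBS. Gpx3 was the exception, higher in each exosome library. Changes are differences of log2(FPKM + 1). The change in 0.2% FBS is the mean of replicates 1 and 2 minus the single 0.2% FBS library, and a gene was counted as past the threshold only where each replicate was. Over all genes, 0.895% were higher and 1.61% lower past the threshold in each of the 2 libraries. Without regard to size, Txnrd1, Srxn1, Gpx1 and Gpx3 were higher and Hmox1 and Gclm lower in each library, whereas the other 4 were split between the replicates. Of all genes, 55.2% were higher and 27.5% lower in each. The median change was 0.04 over the members and 0.14 over all genes. Putting the libraries on a common 75th percentile brought the median of all genes to 0.04 and that of the members to −0.06. After it, 3 members were higher in each library (45.9% of all genes) and 4 lower (37.2%), since Txnrd1 became split and Gclc and Gpx4 joined Hmox1 and Gclm. Relative to Rpl13a, a ribosomal protein gene often used as a reference, the mean changes of Txnrd1 and Prdx1 also turned from above to below 0. Those of Nqo1, Srxn1 and Gpx1 were −0.24, 0.17 and 0.49.

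**Figure D1:**
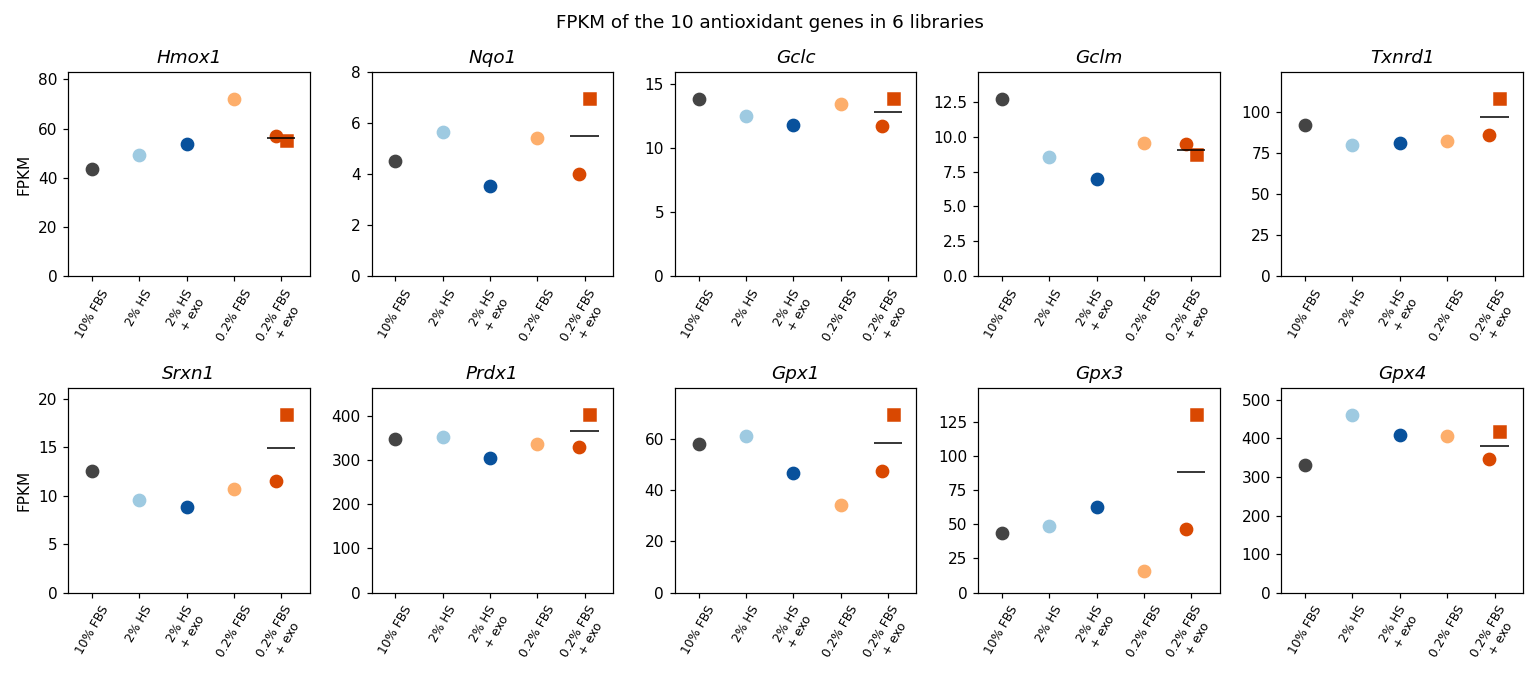
FPKM of each of the 10 genes (vertical axes, linear and starting at 0) in the 5 conditions. Each point is 1 library, the circle and the square in 0.2% FBS + exosome are replicates 1 and 2, and the line is their mean. Gpx3 lies at 15.6 in 0.2% FBS, below the other 5 libraries, and at 130.1 in replicate 2 with exosomes.

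Of the members, Gpx3 and Gpx1 had the widest log2 ranges over the 6 libraries, 2.99 and 1.00, while Gpx4, at 0.48, was below the median of all genes. Gpx3, at chr11:54902453-54910377 on the plus strand with 5 exons, encodes the glutathione peroxidase that cells secrete and that circulates in plasma. Its level was 43.4 FPKM in 10% FBS, 48.4 in 2% HS, 62.4 in 2% HS + exosome and 15.6 in 0.2% FBS. With exosomes in 0.2% FBS it was 46.4 FPKM in replicate 1 and 130.1 in replicate 2. The lowest library was thus the control of this comparison, replicate 1 stood between the growing cells and 2% HS, and replicate 2 lay above all others. Against the 0.2% FBS library, replicate 1 was higher by 1.52 and replicate 2 by 2.99 on the log2 scale (mean 2.25, SD 1.04, n = 2). In a limma fit across all genes with 1 mean per condition, the change was 2.25 (SE 0.47, adjusted p = 0.0235), where 12.5% of all genes were called at an adjusted p under 0.05. This fit has 1 residual degree of freedom, from replicates 1 and 2, and assumes that the single libraries vary as these do. It also draws the spread of each gene toward that of all genes of like level. The SE of Gpx3 therefore does not measure the spread of its own replicates alone, whose SD was 1.04. Testing all 16450 genes above 0 in any library, it called 0 genes, with 3121 at an unadjusted p under 0.05, and the adjusted p of Gpx3 was then 0.345.

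Gpx3 also differed most between the replicates, by 1.47 on the log2 scale, against a median of 0.15 over all genes. In 2% HS it was higher with exosomes by 0.36 (1 library against 1, with no replicate check). The exosome effects in the media differed by 1.89 (0.2% FBS minus 2% HS, limma, SE 0.72, adjusted p = 0.209). No member was called for this difference, against 1.16% of all genes. With 1 exosome effect common to both media, limma called 0% of all genes and 709 at an unadjusted p under 0.05. In that fit the Gpx3 effect was 1.44 (SE 0.53, adjusted p = 0.705), with a value above its control in 3 of 3 exosome libraries, 2 of which share the 0.2% FBS control.

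The levels without added exosomes set these changes in place. The label of the 10% FBS library names no exosome depletion, and the paper matched the added exosomes to the number in 10% FBS. From 10% FBS to 0.2% FBS Gpx3 differed by −1.42, the only member past the threshold in that comparison, which 2.48% of all genes passed. From 10% FBS to 2% HS it differed by 0.15. Both exosome changes in 0.2% FBS and the difference from 10% FBS use the same 0.2% FBS library, so its low value enters each of them. Against 10% FBS, the exosome libraries differed by 0.10 in replicate 1 and 1.56 in replicate 2, and no member passed in both (0.214% of all genes did).

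Gpx1, which encodes the cytosolic and mitochondrial peroxidase, is the smaller counterpart of this pattern. It was at 58.1 FPKM in 10% FBS, 60.9 in 2% HS, 46.6 in 2% HS + exosome and 34.0 in 0.2% FBS, and at 47.5 and 69.3 in replicates 1 and 2 with exosomes. As for Gpx3, the 0.2% FBS library was the lowest and replicate 2 the highest. Against the 0.2% FBS library, replicate 1 was higher by 0.47 and replicate 2 by 1.00 (mean 0.74, SD 0.38, n = 2, limma adjusted p = 0.0728). Replicate 2 alone was just past the threshold, and it was within it, at 0.86, on the common 75th percentile. In 2% HS the change was −0.38, and the difference between the media was 1.12 (limma, SE 0.36, adjusted p = 0.154). From 10% FBS to 0.2% FBS, Gpx1 differed by −0.75.

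Gpx4 encodes the peroxidase that reduces lipid peroxides within membranes and so protects against ferroptosis. It was the most abundant member by mean FPKM, ranking 188 of 10731 genes. Its level was 329.9 FPKM in 10% FBS, 461.3 in 2% HS, 409.4 in 2% HS + exosome and 406.9 in 0.2% FBS, and 346 and 415.6 in replicates 1 and 2 with exosomes. Growing cells were lowest, and the 0.2% FBS library fell between the replicates. The change was −0.10 with exosomes in 0.2% FBS (SD 0.19, n = 2) and −0.17 in 2% HS. Relative to Rpl13a these exosome changes were −0.36 and −0.33. The difference from 10% FBS was 0.48 in 2% HS, where the serum species also differs, and 0.30 in 0.2% FBS. Relative to Rpl13a these were 1.05, past the threshold, and 0.65. Dividing by Rpl13a moved other members about alike from 10% FBS to 2% HS, Prdx1 from 0.02 to 0.59 and Gpx1 from 0.07 to 0.63. No share of all genes was taken at this setting, so the crossing also carries the change of Rpl13a itself. The FPKM ratio of Gpx4 to Gpx3 was 26.2 in 0.2% FBS, between 6.56 and 9.53 in 4 libraries and 3.19 in replicate 2. That of Gpx4 to Gpx1 was 11.95 in 0.2% FBS and between 5.68 and 8.79 in the other 5 libraries. Of the 75-base stretches in the Gpx4 transcripts, 46.2% also occur in other annotated genes, chiefly the pseudogene Gpx4-ps2, so its reads are uncertain. For Prdx1 this share was 4.58% and for the other 8 members 0%.

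**Figure D2:**
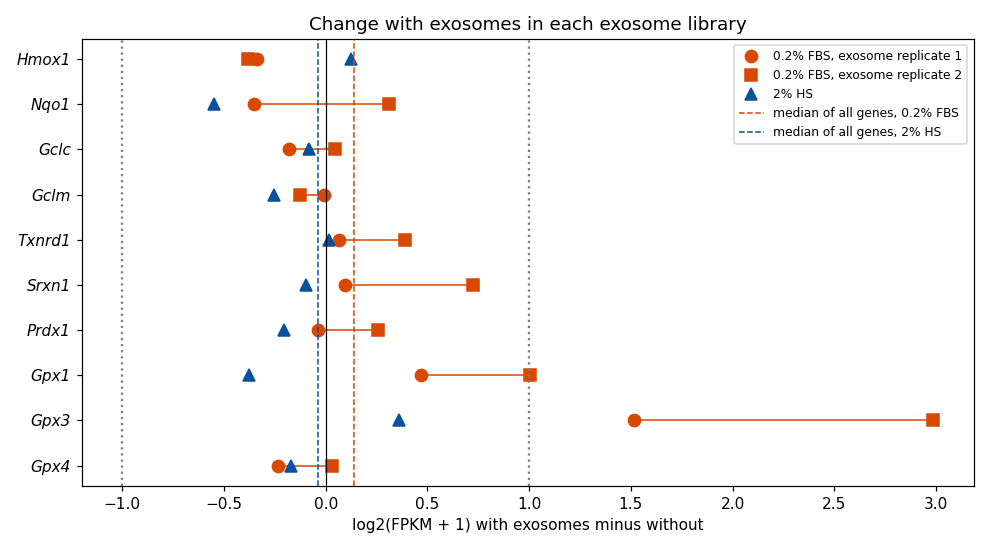
Log2(FPKM + 1) with exosomes minus without (horizontal axis) for each gene. Orange circles and squares are replicates 1 and 2 in 0.2% FBS, joined by a line, and blue triangles are the single 2% HS library. Dotted lines mark −1 and 1 and dashed lines the medians of all genes, 0.14 and −0.04. Gpx3 alone lies beyond 1 in both replicates.

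The heme and quinone enzymes stayed within the threshold in every comparison of the deposited values. Hmox1, at chr8:75093621-75100589 on the plus strand, encodes heme oxygenase, which breaks heme down to biliverdin, iron and carbon monoxide. It was at 43.7 FPKM in 10% FBS, 49.3 in 2% HS, 53.9 in 2% HS + exosome and 72.2 in 0.2% FBS. Replicates 1 and 2 with exosomes stood at 56.9 and 55.1. The 0.2% FBS library, lowest for Gpx1 and Gpx3, was highest for Hmox1, growing cells were lowest, and the replicates nearly coincided. The log2 change with exosomes in 0.2% FBS was −0.34 and −0.38 (mean −0.36, SD 0.03, n = 2), and limma gave an SE of 0.17 and an adjusted p of 0.190. In 2% HS the change was 0.13 (−0.03 relative to Rpl13a), and the difference between media was −0.49 (limma adjusted p = 0.347). The difference from 10% FBS was 0.71 in 0.2% FBS (1.05 and past the threshold relative to Rpl13a). It was 0.17 in 2% HS, where the serum species also differs. Relative to Rpl13a the mean exosome change in 0.2% FBS was −0.61. From 10% FBS to 0.2% FBS, dividing by Rpl13a also moved Gclc and Prdx1, each from −0.04, to 0.29 and 0.305. No share of all genes was taken at this setting.

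Nqo1 encodes a quinone reductase and is among the genes most often used as a readout of NRF2. It was the lowest member, at 4.54 FPKM in 10% FBS, 5.64 in 2% HS, 3.54 in 2% HS + exosome and 5.43 in 0.2% FBS, and at 4.03 and 6.97 in replicates 1 and 2 with exosomes. The replicates lay on either side of their control and spanned all but the 2% HS + exosome library. The changes were −0.35 and 0.31 (mean −0.02, SD 0.47, n = 2) in 0.2% FBS and −0.55 in 2% HS. An effect within this spread was not detectable here.

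The genes of glutathione synthesis stayed within the threshold. Gclc and Gclm encode the catalytic and the modifier subunit of glutamate-cysteine ligase, the enzyme of the rate-limiting step. Gclc was at 13.8 FPKM in 10% FBS, 12.6 in 2% HS, 11.8 in 2% HS + exosome, 13.4 in 0.2% FBS, and 11.7 and 13.9 in replicates 1 and 2 with exosomes. The replicates were the lowest and the highest of all 6 values, so no other difference exceeded their spread. Its range over the libraries, 0.23 on the log2 scale, was the smallest of the members (median of all genes 0.52). Gclm was at 12.7 FPKM in 10% FBS, 8.51 in 2% HS, 6.96 in 2% HS + exosome, 9.53 in 0.2% FBS, and 9.48 and 8.65 with exosomes. Growing cells thus had the most Gclm and 2% HS + exosome the least, 0.79 apart on the log2 scale. The differences of the remaining conditions from 10% FBS were −0.53 in 2% HS and −0.38 in 0.2% FBS (−0.0064 and −0.06 relative to Rpl13a) and −0.45 in 0.2% FBS + exosome (SD 0.08, n = 2). With exosomes in 0.2% FBS, Gclm changed by −0.07 (SD 0.08, n = 2) and Gclc by −0.07 (SD 0.16, n = 2). In 2% HS the values were −0.26 and −0.08. Relative to Rpl13a they were −0.29 and −0.31 in 0.2% FBS and −0.40 and −0.23 in 2% HS. The FPKM ratio of Gclc to Gclm was 1.09 in 10% FBS and between 1.24 and 1.70 in the other 5 libraries.

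The thioredoxin and peroxiredoxin genes also stayed within the threshold. Txnrd1 encodes the cytosolic thioredoxin reductase, Prdx1 an abundant cytosolic peroxiredoxin, and Srxn1 sulfiredoxin, which rescues peroxiredoxins inactivated by over-oxidation. Txnrd1 was at 92.3 FPKM in 10% FBS, 80.2 in 2% HS, 81.1 in 2% HS + exosome, 82.4 in 0.2% FBS, and 86.2 and 108.1 in replicates 1 and 2 with exosomes. The other differentiating libraries lay close together. Srxn1 was at 12.6, 9.57, 8.87 and 10.7 FPKM in the same order of conditions, and at 11.5 and 18.4 FPKM with exosomes in 0.2% FBS. Prdx1 was at 346.8, 352.4, 305.3 and 336.9 FPKM, and at 328.6 and 402.1 FPKM. In all 3 genes replicate 2 was the highest library. It also had the highest FPKM sum and 75th percentile of the libraries, and the share of all genes highest in it was not taken. Replicate 1 lay within the range of 10% FBS, 2% HS and 0.2% FBS for Txnrd1 and Srxn1 and below it for Prdx1. Against 2% HS and 0.2% FBS alone, it lay above both for Txnrd1 and Srxn1 and below both for Prdx1. The log2 change with exosomes in 0.2% FBS was 0.23 for Txnrd1 (SD 0.23), 0.41 for Srxn1 (SD 0.45) and 0.11 for Prdx1 (SD 0.21), each with n = 2. In limma their adjusted p lay between 0.295 and 0.831. In 2% HS the changes were 0.02, −0.10 and −0.21, and no member passed the threshold there (0.652% of all genes did). None passed from 10% FBS to 2% HS either, where 2.31% of all genes did.

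Of the regulators, Nfe2l2 itself was higher with exosomes in 0.2% FBS. It was at 66.9 FPKM in 10% FBS, 53.2 in 2% HS, 64.8 in 2% HS + exosome, 50.1 in 0.2% FBS, and 80.0 and 87.7 in replicates 1 and 2. Both exosome replicates lay above the other 4 libraries, and the change was 0.73 (SD 0.09, n = 2, limma adjusted p = 0.0368, and 0.705 with 1 effect common to both media). Keap1, its inhibitor, went from 9.03 FPKM without exosomes to 10.4 and 11.7 with them (change 0.26, adjusted p = 0.309). In 2% HS it was at 8.84 FPKM without and 7.62 with exosomes. Bach1, a repressor of Hmox1 and of other antioxidant response elements, went from 10.4 FPKM to 9.54 and 9.82 (−0.09, adjusted p = 0.729). In 2% HS it was at 8.40 FPKM without and 10.3 with exosomes.

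The other genes of these pathways were taken from 10 lists with 118 symbols, of which 117 were in the table and 100 had a mean of at least 1 FPKM. With exosomes in 0.2% FBS, 0 of the 100 were higher and 1 lower past the threshold in each library, beside 0.895% and 1.61% of all genes. Their median change was 0.15, near the 0.14 of all genes, and limma called 13 of the 100, beside 12.5% of all genes. The gene past the threshold in each library was Trib3, a pseudokinase induced in amino acid and endoplasmic reticulum stress, which went from 7.32 FPKM without exosomes to 2.71 and 2.97 with them (−1.12, adjusted p = 0.00895). In 2% HS, 3 of the 100 were higher past the threshold and 0 lower, and 0.652% of all genes passed in either direction. They were Trib3, at 5.65 FPKM without and 34.9 with exosomes (2.43), Sesn2, a sestrin of the stress response, at 10.6 and 26.9 (1.27), and Slc3a2, the heavy subunit of the cystine transporter, at 112.5 and 232.5 (1.04). The difference between media had a limma adjusted p of 0.0036 for Trib3, 0.0395 for Sesn2 and 0.0594 for Slc3a2. The 2% HS arm is 1 library against 1, and without the filter on low values this limma fit called 0 genes, with 2276 at an unadjusted p under 0.05.

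**Figure D3:**
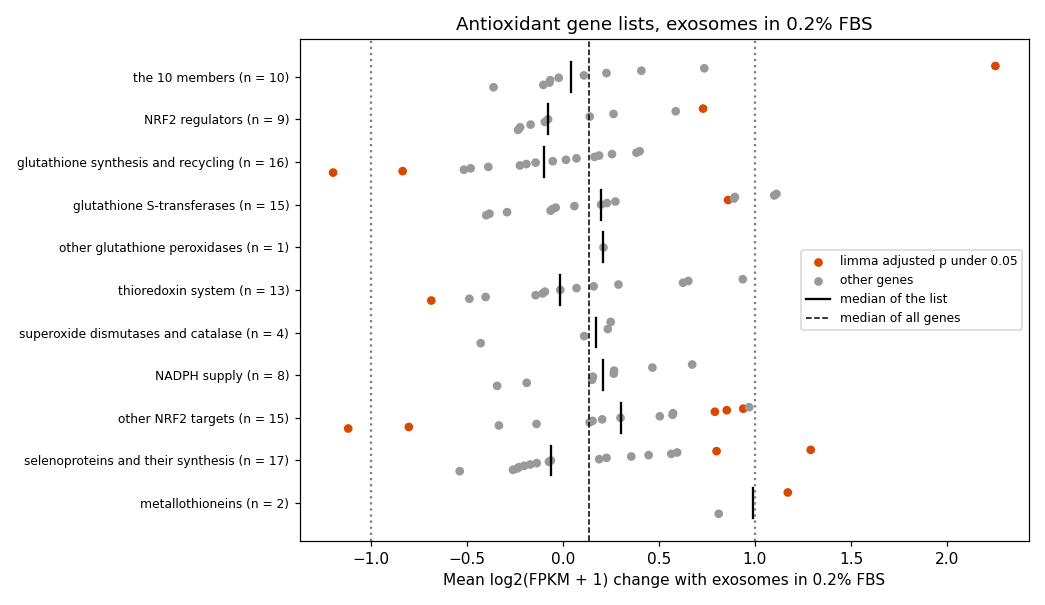
Mean log2(FPKM + 1) change with exosomes in 0.2% FBS (horizontal axis) for each gene with a mean of at least 1 FPKM, by list. Orange points have a limma adjusted p under 0.05, short lines are the medians of the lists, dotted lines mark −1 and 1, and the dashed line is the median of all genes, 0.14. Gpx3, at 2.25, lies farthest from 0.

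The genes called by limma that were not past the threshold in each library fell into several lists, and they are named here after their values had been seen. Of these, Selenop, Mt1 and Chac1 were beyond 1 or −1 in their mean. Selenop (listed as Sepp1), which encodes the selenoprotein that carries selenium in plasma, went from 70.2 FPKM without exosomes to 139.2 and 215.6 with them (change 1.29, adjusted p = 0.0242). Selenon (Sepn1) changed by 0.80, Mt1, a metallothionein, by 1.17, and Ugdh, Ephx1, Cbr3 and Gstm2, enzymes of conjugation and detoxification, by 0.85, 0.79, 0.94 and 0.86. Lower were Chac1, which degrades glutathione (−1.20), Slc7a11, the light chain of the cystine transporter (−0.83), Osgin1 (−0.80) and Prdx6 (−0.68). In 2% HS the exosome values of Chac1, Slc7a11 and Prdx6 were 0.89, 0.63 and 0.39, and the difference between media had a limma adjusted p of 0.0265, 0.055 and 0.0896. Ephx1 was at −0.42 in 2% HS (difference adjusted p = 0.068). Selenop, Mt1 and Gstm2 were at 0.60, 0.18 and 0.18 in 2% HS, and Selenon, Ugdh, Cbr3 and Osgin1 at −0.01, −0.04, −0.11 and −0.18. For Selenop, Selenon, Mt1, Ugdh, Ephx1 and Cbr3 the single 0.2% FBS control was the lowest of all libraries. Mt1 was at 240.2 FPKM in 10% FBS, 130.4 in 0.2% FBS and 237.6 in replicate 1. Of the 17 genes for selenoproteins and their synthesis with a mean of at least 1 FPKM, 8 were higher and 6 lower in each library, with a median of −0.06, beside 55.2%, 27.5% and 0.14 over all genes.

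By likeness over the 6 libraries, the genes closest to Gpx3 were Smarcal1 (r = 0.987), Arhgef10l (0.981) and Fez1 (0.980). Those closest to Gpx1 were Zfp653 (0.976), 1190005I06Rik (0.973) and Snx1 (0.971). These are Pearson coefficients of log2(FPKM + 1) over 6 libraries, chosen as the highest among all genes, and they describe these libraries alone.

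The whole libraries frame these values. Their sums lay between 461439 and 515215 FPKM, with the highest in replicate 2 of 0.2% FBS + exosome, and the depth was estimated at 33600000 to 39400000 reads from the spacing of low values. By this estimate the member with the fewest reads was Nqo1 in 2% HS + exosome, at 163 reads, for which counting alone gives an SD of 7.83%, and Gpx3 rested on 359 reads in 0.2% FBS and 2754 in replicate 2. Reads of a gene were estimated at the median length of its coding transcripts, which for Gpx3 is 829 bases where the longest is 1594. The cells expressed myogenic genes in every library. The 9 myotube markers summed to 20604 FPKM in 0.2% FBS and to 8104 and 5877 with exosomes, and 7 of the 9 fell past the threshold in each exosome library. The order of these sums in 0.2% FBS is the reverse of that of Gpx3, and the part of the differentiated state in the Gpx3 values was not tested. In 2% HS the sums were 18718 without and 18246 with exosomes, with Gpx3 at 48.4 and 62.4 FPKM. In 10% FBS the sum was 8482 with Gpx3 at 43.4 FPKM, so both were lower there than in 2% HS. The 6 myoblast markers, of which 4 had a mean of at least 1 FPKM, summed to 1283 FPKM in 0.2% FBS and to 807 and 810 with exosomes. That sum was mainly Des, at 1043 FPKM and then at 559.2 and 542.9, and of the 4 genes 2 were higher and 2 lower in each library (median 0.03). Myf5 was higher, at 5.39 FPKM and then at 10.1 and 12.9 (limma adjusted p = 0.0196), and both were named after their values had been seen. Markers of adipocytes, macrophages and endothelium were low. The 7 adipocyte markers summed to between 3.27 and 4.34 FPKM per library, with Cfd and Cidec at 0 in all 6 and Adipoq at most at 0.0286. That sum was mainly Pparg, between 1.88 and 3.06 FPKM, and Lep, between 1.01 and 1.62. The 6 macrophage markers summed to between 2.29 and 3.55 FPKM, mainly Cd68 and Lyz2, at most at 2.00 and 1.46, and the 4 endothelial ones to at most 0.284. The blood and liver transcripts, of which 6 of 9 were in the table, summed to 3.97 FPKM in 0.2% FBS and to 9.35 and 20.6 with exosomes. Alb was at 0 in all 6 libraries, and most of the sum was Ppbp, a platelet chemokine gene, at 3.42 FPKM in 0.2% FBS and at 7.86 and 17.0 with exosomes. The 5 fibroblast markers summed to 191.9 FPKM in 0.2% FBS and to 306.5 and 257.2 with exosomes. The part of these cells or transcripts in the Gpx3 values was not tested.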

How the data were processed

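The 6 libraries were prepared from poly(A) RNA with a stranded kit and sequenced as single reads of 75 bases. Per the labels, the authors trimmed reads with cutadapt 1.9.1, aligned them to mm10 with TopHat2 2.1.0 and deposited FPKM values from Cufflinks; the annotation is not given in the sources used here. FPKM values hold no counts, so no count model was fitted, and depth was estimated from the spacing of low values, of which 74.3 to 77.4% lay within 0.1 of a whole read. Differences were taken on log2(FPKM + 1) over genes averaging 1 FPKM or more, a scale that understates changes of low genes, and tested with limma 3.58.1 (mean-variance trend, Benjamini-Hochberg over all genes). With 1 library against 1, no p-value is given. Alternatives were a pseudocount of 0.1, values under 1 raised to 1, scaling to the 75th percentile, no filter, no trend, leaving out each replicate and, chosen after seeing the data, levels relative to Rpl13a. Named were all members, Nfe2l2, Keap1 and Bach1, other pathway genes past the threshold, and the 3 genes most like each of the 2 members with the largest change. Marker genes are given as sums, with those that make up a sum or are near 0 named after their values had been seen, and other genes outside this rule are marked in the text. Members and lists were chosen with earlier results of these data known. Gene positions are from GENCODE vM21 and promoter sequences from RefSeq.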

Additional observations from a re-analysis of the deposited data

How the results depend on the processing

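Gpx3 was the only member past the threshold with exosomes in 0.2% FBS under every alternative except leaving out replicate 1, which added Gpx1 (1 to 2 members), a crossing that the scaled values of replicate 2 do not make. Among the members, Nfe2l2, Keap1, Bach1, Trib3, Sesn2 and Slc3a2, the genes run one by one, no value past the threshold changed sign. Smaller values did. Only the members were run relative to Rpl13a. Without replicate 1 the changes of Nqo1, Gclc and Gpx4 with exosomes in 0.2% FBS were 0.31, 0.04 and 0.03, and without replicate 2 that of Prdx1 was −0.04. Relative to Rpl13a, Txnrd1, Srxn1 and Gclc were above 0 from 10% FBS to 2% HS (0.37, 0.16 and 0.40). They were also above 0 to 0.2% FBS (0.18, 0.11 and 0.29), as was Prdx1 (0.305). Dividing by 1 gene shifts all genes of a library about alike, so these signs also carry the change of Rpl13a itself. The number of all genes higher past the threshold with exosomes in 0.2% FBS was 96 as reported. It was 193 with a pseudocount of 0.1, 182 with low values raised to 1 and 63 after scaling. Leaving out a replicate gave 155 to 312 higher and 183 to 305 lower. With the same 2 pseudocount settings, 126 and 123 genes passed for exosomes in 2% HS (70 as reported), 455 and 440 for 0.2% FBS against 10% FBS (266), 402 and 375 for 2% HS against 10% FBS (248) and 76 and 67 for 0.2% FBS + exosome against 10% FBS (23). The last comparison gave 92 to 109 genes and 0 to 1 members when a replicate was left out. In limma, 0 genes and 0 members were called for exosomes in 0.2% FBS without the filter (1344 and 1 as reported). The adjusted p of Gpx3 lay between 0.0114 and 0.345 over the alternatives. The difference between media was called for 377 genes after scaling, 0 without the filter and 45 without the trend (125). Relative to Rpl13a, 2 members, Gpx3 and Hmox1 (1.05), passed from 10% FBS to 0.2% FBS. From 10% FBS to 2% HS, 1 member, Gpx4, passed. This alternative was chosen after seeing the data and was run on the members alone. No share of all genes stands beside these counts. The causes were not tested. No paired analysis was possible because the groups compared share fewer than 2 replicate numbers. In the deposited titles, replicate 1 carries the same number as the 0.2% FBS control, while replicate 2 carries a number that no control has. What these numbers mean is not stated. Depth limits Nqo1 most at its lowest value, 163 estimated reads in 2% HS + exosome. Taken at the median length of its coding transcripts, Gclm rested on fewer reads than Nqo1 in 2% HS (262 against 293) and in replicate 2 (233 against 317). That length is 1002 bases for Gclm, whose longest coding transcript is 5589, and the estimate rises with the length chosen. The order of the 2 genes therefore depends on that choice, as Nqo1 has 1 coding transcript, of 1553 bases.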

Other observations

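Among the glutathione S-transferases, which couple glutathione to toxic compounds, 8 of the 15 that averaged 1 FPKM or more were higher and 2 lower in each exosome library of 0.2% FBS, with a median of 0.20 (0.10 after scaling). Over all genes 55.2% were higher and 27.5% lower in each library, with a median of 0.14, so the share of higher genes was close to that of all genes. Mgst1, the microsomal enzyme, went from 10.7 FPKM without exosomes to 16.9 and 34.8 with them (1.11, SD 0.71, n = 2, limma adjusted p = 0.0656). Gsta4, which clears products of lipid peroxidation, was at 45.8 and then at 68.8 and 106.8 FPKM (0.89, adjusted p = 0.0566). Gstm1 was at 37.7 and then at 57.4 and 87.9 FPKM (0.90, adjusted p = 0.05004). Replicate 2 was higher than replicate 1 in all 3 genes, as for Gpx3. The share of all genes with this order was not taken, and replicate 2 also had the higher 75th percentile, 28.8 FPKM against 27.5. In 10% FBS, Mgst1, Gsta4 and Gstm1 were at 7.52, 75.4 and 41.3 FPKM. These genes, and Idh2, Sod1 and Sod2, were named after their values had been seen.

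Of the 8 genes that supply NADPH, 6 were higher and 2 lower in each library (median 0.21, and 0.11 after scaling), and limma called 0. Their median in 2% HS was −0.25. Idh2, the mitochondrial isocitrate dehydrogenase, went from 36.8 FPKM to 51.3 and 68.3 (0.67, adjusted p = 0.0678). In 10% FBS Idh2 was at 56.6 FPKM, above replicate 1. Sod1, the cytosolic superoxide dismutase, was at 199 FPKM and then at 204.2 and 268.6, while Sod2, the mitochondrial one, was at 25.7 and then at 17.3 and 20.4. Neither was called (adjusted p = 0.587 and 0.130). The counts of the other lists stand beside the same shares of all genes, 55.2% higher and 27.5% lower. Among the 9 regulators above the same minimum, 4 were higher and 5 lower in each library (median −0.08). The 16 genes of glutathione synthesis and recycling had 5 and 8 (median −0.10), the 13 of the thioredoxin system 5 and 5 (−0.01), the 15 other NRF2 targets 11 and 4 (0.30), the 4 superoxide dismutase and catalase genes 3 and 1 (0.17), and both metallothioneins were higher (0.99). Gpx8, the 1 other glutathione peroxidase above the minimum, was higher in each library (0.21). After scaling, the medians were −0.18 for the regulators and −0.18 for glutathione synthesis and recycling. The thioredoxin system was at −0.12 and the other NRF2 targets at 0.19. Superoxide dismutases and catalase were at 0.07, the metallothioneins at 0.88 and Gpx8 at 0.10. Over all genes, 45.9% were then higher and 37.2% lower in each library, with a median of 0.04.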
